A study of Mus musculus with 30 samples.

Results

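Diabetes in the wild-type retina was described from 7 RNA sequencing libraries, out of 30 in the study: 4 retinas of diabetic Lepr(db/db) mice with intact CaMKIIdelta and 3 retinas of non-diabetic Lepr(+/+) mice with intact CaMKIIdelta, all from animals 16 weeks old. The libraries were chosen by tissue, genotype and diabetic status as the labels give them, and each retina came from a different animal. Values of single retinas are given throughout in the order R_WT_db_844, R_WT_db_915, R_WT_db_942 and R_WT_db_954 for the diabetic group (R for retina, db for Lepr(db/db) and the animal number) and R_WT_ndb_812, R_WT_ndb_819 and R_WT_ndb_852 for the non-diabetic group. A second pair of groups, from mice with a global knockout of Camk2d, entered the same model and is used here for the difference in the diabetes effect: 3 retinas of diabetic Lepr(db/db) knockout mice and 4 of non-diabetic Lepr(+/+) knockout mice. The labels place no gene other than Lepr and Camk2d among the alleles, and strain background, sex and litters are not given in the sources used here.

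Lepr encodes the receptor of the fat-derived hormone leptin. Mice homozygous for the db allele lack the receptor form that signals, overeat, become obese and develop high blood glucose. In the retina, long-lasting high glucose is known for loss of pericytes and other changes of small vessels, for reactive Mueller glia and microglia, and for early changes in photoreceptor and inner retinal function. Because the db allele acts in the whole body, obesity, altered hormones and hyperglycaemia come together in this model and cannot be told apart.

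The 7 libraries held 20062306 to 20819158 expected counts, and 20979 of 55385 genes passed the filter on low counts. Rod marker genes, which include rhodopsin and its phototransduction partners, summed to 67940 to 81950 normalised counts (CPM, scaled to the same library total) in diabetic retinas and 69310 to 72110 CPM in non-diabetic retinas. The libraries of the diabetic group were not alike: on the first principal component of log2 CPM, which held 24.2% of the variance over all 14 retina libraries, diabetic libraries R_WT_db_915, R_WT_db_942 and R_WT_db_954 lay at 53.04, 55.56 and 49.55 and diabetic library R_WT_db_844 at -6.06, against -15.77 to -7.32 for the non-diabetic ones. On the second, which held 15.4%, library R_WT_db_844 lay at -26.39 and the other diabetic ones at 0.81 to 9.58, against -36.48 to -36.36 for the non-diabetic ones. Lens genes, described further down, were high in non-diabetic libraries R_WT_ndb_812 and R_WT_ndb_819 alone among the 7. By Xist and Y-linked transcripts, diabetic animals R_WT_db_844 and R_WT_db_942 were female and R_WT_db_915 and R_WT_db_954 male, against female R_WT_ndb_819 and male R_WT_ndb_812 and R_WT_ndb_852 in the non-diabetic group. Of the 74 calls of named genes, 70 were lost without non-diabetic library R_WT_ndb_819 and none without diabetic library R_WT_db_844, and the 4 that held without R_WT_ndb_819 were those of Selenbp1, Taf4b, Rsbn1 and Rpl10-ps3.

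Across all genes, 520 of 20979 (2.48%) differed between diabetic and non-diabetic wild-type retina at an adjusted p under 0.05, by edgeR's quasi-likelihood test with Benjamini-Hochberg adjustment over all genes tested. Of these, 271 (1.29% of the genes tested) were higher and 249 (1.19%) were lower in diabetic retina. In 442 of the 520, every diabetic library lay on one side of every non-diabetic library, as it did for 2888 (13.8%) of all genes tested (6.79% higher and 6.97% lower in diabetic retina). How many genes passed depended on single libraries, as the plot of calls by setting shows. Without diabetic library R_WT_db_844, 1501 genes passed. Without diabetic library R_WT_db_915, R_WT_db_942 or R_WT_db_954, 145, 437 and 214 passed, and without non-diabetic library R_WT_ndb_812, R_WT_ndb_819 or R_WT_ndb_852, 60, 4 and 168 passed. Of the 520 genes, all that could be refitted kept their direction in each of these 7 fits. A fit to the wild-type libraries alone called 1 gene, the predicted gene Gm20075, at an adjusted p of 0.00854, with 3106 genes at an unadjusted p under 0.05. Gm20075 was not among the 520 genes (edgeR adjusted p 0.0527 with all retina libraries). None of the 520 passed in the fit to wild-type libraries alone, and the 515 of them that it held kept their direction. The authors' TPM, tested with limma on log2(TPM + 1), gave 154 calls of which 82.5% were higher in diabetic retina, against 52.1% of the calls made on counts.

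**Figure D1:**
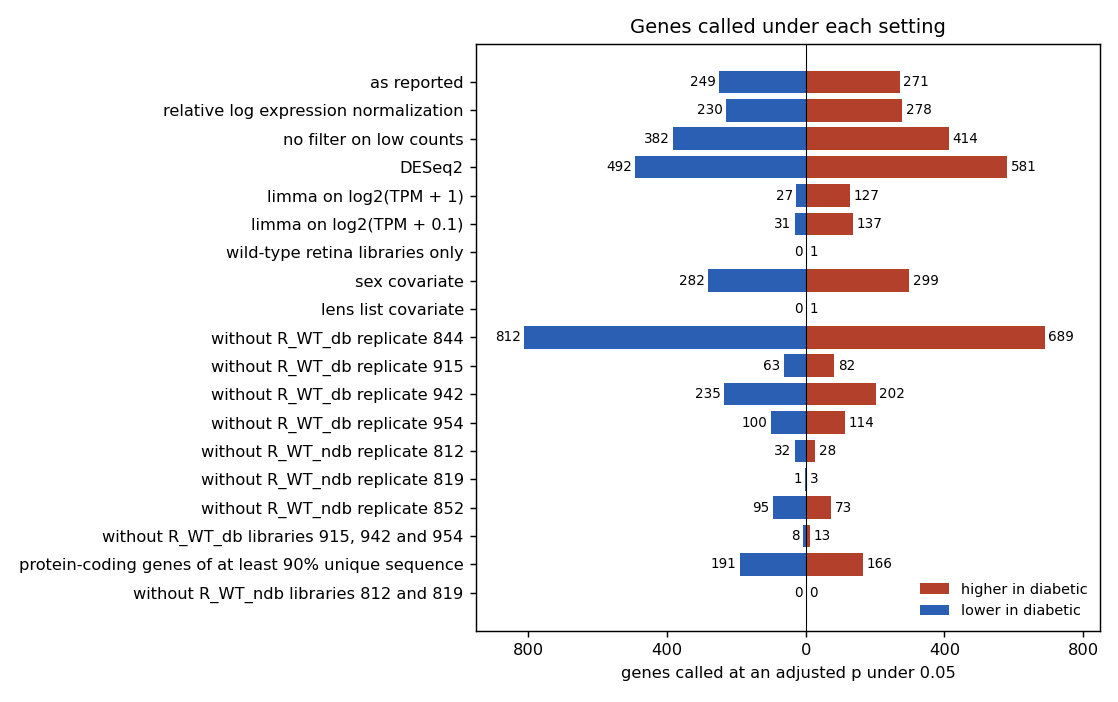
Number of genes called at an adjusted p under 0.05 in diabetic against non-diabetic wild-type retina (horizontal axis) under each setting of the analysis (rows), with genes higher in diabetic retina to the right and genes lower in diabetic retina to the left of 0. The total was 520 as reported, 4 without non-diabetic library R_WT_ndb_819, and 1501 without diabetic library R_WT_db_844.

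Selenbp1 had the smallest p of all genes tested. It encodes selenium binding protein 1, which oxidises methanethiol and is found in metabolically active and epithelial tissue. Its level was 48.9, 19.3, 47.1 and 28.7 CPM in diabetic retinas, against 6.68, 7.98 and 5.70 CPM in non-diabetic retinas. Every diabetic retina was above every non-diabetic one, and the log2 fold change was 2.41 ± 0.27 (SE; edgeR adjusted p 0.00476), with a range of 2.22 to 2.61 when any 1 library was left out. Library R_WT_db_844 alone against the non-diabetic group gave 2.85. Of the 31-base stretches in its transcripts, 38.9% occur in no other gene, so that reads shared with a near-identical gene may have been divided between them and its absolute level is uncertain.

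The window around the start of Selenbp1 is shown with that of Hif3a, the gene of smallest p among those that also belong to a gene list with several rises. Both are RefSeq promoter windows of build GRCm38.p6, 250 bases before to 50 after the start, at chr3:94932833-94933132, plus strand, and chr7:17062378-17062677, minus strand. Capitals mark, on either strand, the TATA box sequence TATAAA, the Maf recognition sequence TGCTGA and the CCAAT box.
Selenbp1: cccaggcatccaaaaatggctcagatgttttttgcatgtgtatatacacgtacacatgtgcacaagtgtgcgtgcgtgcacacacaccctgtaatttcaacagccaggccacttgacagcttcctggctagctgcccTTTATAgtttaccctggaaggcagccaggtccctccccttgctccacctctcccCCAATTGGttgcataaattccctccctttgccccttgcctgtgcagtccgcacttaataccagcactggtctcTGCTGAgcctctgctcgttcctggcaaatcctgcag
Hif3a: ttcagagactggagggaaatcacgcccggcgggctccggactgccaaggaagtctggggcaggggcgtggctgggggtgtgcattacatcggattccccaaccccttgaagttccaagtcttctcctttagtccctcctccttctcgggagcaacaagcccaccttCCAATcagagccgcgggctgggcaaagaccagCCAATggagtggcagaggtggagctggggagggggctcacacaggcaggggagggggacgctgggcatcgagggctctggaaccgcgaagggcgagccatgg
Selenbp1 held 1 TATA box match, 1 Maf match and 2 overlapping CCAAT matches on opposite strands, and Hif3a held 2 CCAAT matches. Of all 32851 windows of this length, 13.6% held the TATA box, 19.5% the Maf sequence and 37.4% the CCAAT box. The core sequence AGAACA of the glucocorticoid receptor site, searched on both strands, was in 19% of all windows and in neither of these. The lack of a match says only that these letters are not in this window.

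Apart from Selenbp1, 3 genes passed the test in each of the 7 fits that left out 1 wild-type library. In the fit to wild-type libraries alone the edgeR adjusted p was 0.0688 for Selenbp1 and 0.0749 for each of the 3. With the summed lens level as a covariate it was 0.0579 for Selenbp1 and 0.197 for each of the 3. Taf4b, a gonad-enriched subunit of the general transcription factor TFIID, was at 41.5, 53.0, 49.6 and 51.7 CPM in diabetic retinas, against 29.1, 33.6 and 28.9 CPM in non-diabetic retinas (log2 fold change 0.68 ± 0.09, edgeR adjusted p 0.00571). Rsbn1, round spermatid basic protein 1, was at 98.0, 114, 108 and 109 CPM in diabetic retinas, against 72.0, 79.0 and 79.8 CPM in non-diabetic retinas (0.48 ± 0.06, edgeR adjusted p 0.00571). Groups did not overlap for either gene. Rpl10-ps3, by its symbol a copy of the ribosomal protein gene Rpl10, fell to 86.0, 82.9, 75.6 and 89.3 CPM in diabetic retinas, against 130, 120 and 110 CPM in non-diabetic retinas (log2 fold change -0.52 ± 0.06). Only 3.4% of its 31-base stretches occur in no other gene, so that its reads cannot be assigned with certainty.

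Further genes of small p rose in all 4 diabetic retinas, library R_WT_db_844 included. Folh1, glutamate carboxypeptidase II, which releases glutamate from N-acetylaspartylglutamate, was at 30.9, 20.6, 30.8 and 22.1 CPM in diabetic retinas, against 14.8, 14.1 and 12.8 CPM in non-diabetic retinas (log2 fold change 0.91 ± 0.13, edgeR adjusted p 0.00857). Dpysl3, a cytoskeletal regulator of growing axons, was at 287, 315, 317 and 246 CPM in diabetic retinas, against 195, 194 and 184 CPM in non-diabetic retinas (0.61 ± 0.08, edgeR adjusted p 0.00571). Pcm1, the scaffold of centriolar satellites, was at 106 to 115 CPM in diabetic retinas, against 79.1 to 82.2 CPM in non-diabetic retinas (0.45 ± 0.07, edgeR adjusted p 0.00853). Irs2, an adaptor that links the insulin and IGF receptors to PI3 kinase, was at 52.5, 57.0, 55.2 and 56.4 CPM in diabetic retinas, against 42.5, 45.3 and 44.2 CPM in non-diabetic retinas (0.33 ± 0.05, edgeR adjusted p 0.00853). The diabetic retinas were close to each other for Pcm1 and Irs2 and further apart for Folh1 and Dpysl3, and no diabetic retina fell within the non-diabetic range.

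Other genes fell in all 4 diabetic retinas. Syt15, a synaptotagmin family member, was at 13.6, 11.8, 9.96 and 6.94 CPM in diabetic retinas, against 23.8, 22.8 and 20.8 CPM in non-diabetic retinas (log2 fold change -1.08 ± 0.16, edgeR adjusted p 0.00857). Spon2, a secreted matrix protein, was at 1.24, 2.02, 1.09 and 1.03 CPM in diabetic retinas, against 5.25, 4.31 and 4.52 CPM in non-diabetic retinas (-1.80 ± 0.33, edgeR adjusted p 0.014). Nid1, the basement membrane linker nidogen 1, was at 1.69, 2.47, 2.19 and 1.76 CPM in diabetic retinas, against 6.78, 6.36 and 3.05 CPM in non-diabetic retinas (-1.41 ± 0.24, edgeR adjusted p 0.0118). Among the non-diabetic retinas, Nid1 was about as high in R_WT_ndb_812 as in R_WT_ndb_819 and lower in R_WT_ndb_852, the same order as the lens genes below. Ring1, a subunit of Polycomb repressive complex 1, was at 34.9 to 40.8 CPM in diabetic retinas, against 51.1 to 52.5 CPM in non-diabetic retinas (-0.46 ± 0.06, edgeR adjusted p 0.00571). Rab38, a small GTPase of melanosome traffic, and Pdlim1, a cytoskeletal PDZ-LIM adaptor, also fell, with log2 fold changes of -1.41 ± 0.26 and -1.23 ± 0.20. All of the calls in this and the preceding paragraph were lost without non-diabetic library R_WT_ndb_819, where the log2 fold changes stayed negative or positive as reported.

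**Figure D2:**
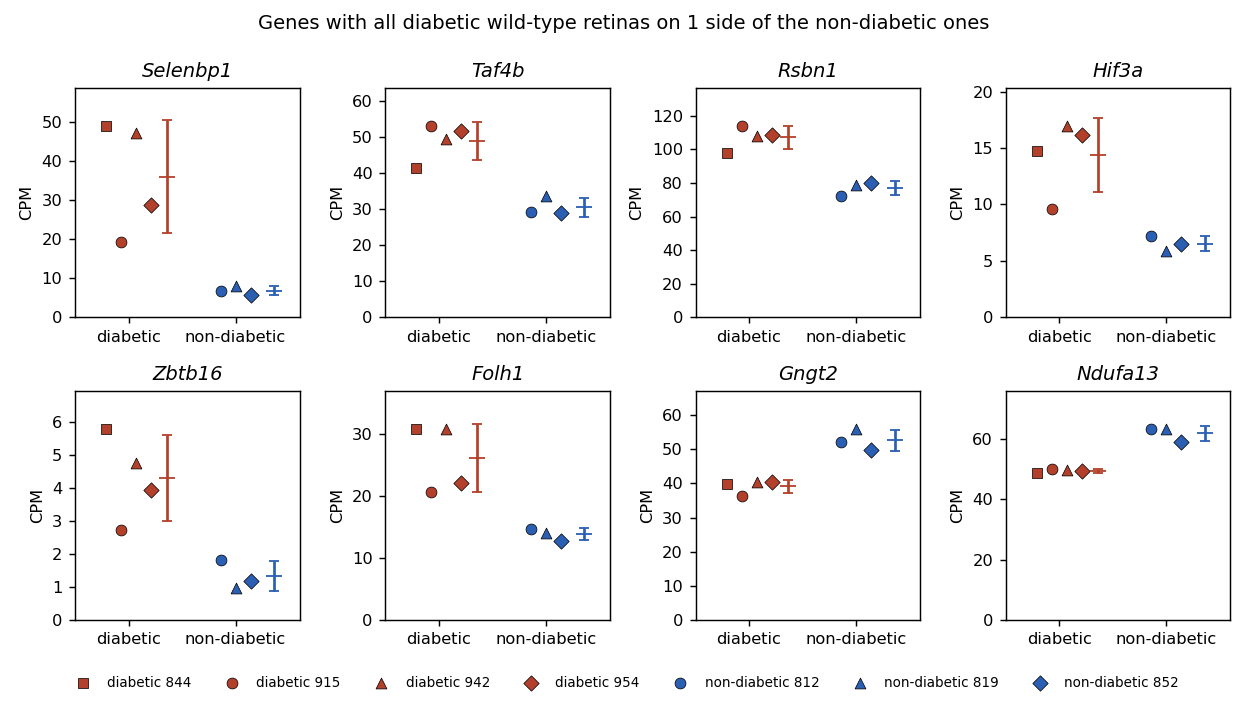
CPM (vertical axes, starting at 0) of 8 genes in each diabetic (left) and non-diabetic (right) wild-type retina, with symbols for the animals and a bar for the mean ± SD of each group (n = 4 diabetic, n = 3 non-diabetic). All 4 diabetic retinas lie above the non-diabetic ones for Selenbp1, Taf4b, Rsbn1, Hif3a, Zbtb16 and Folh1, and below them for Gngt2 and Ndufa13.

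Several genes known to respond to glucocorticoids rose in diabetic retina. Glucocorticoids are adrenal steroids whose receptor is a transcription factor, and db/db mice are known for high circulating corticosterone. Of 15 genes in the list, 4 rose and none fell, where 1.29% of all genes tested rose, and the median log2 fold change was 0.24, against 0 over all genes tested. Zbtb16, a transcriptional repressor induced by glucocorticoids, was at 5.80, 2.72, 4.78 and 3.96 CPM in diabetic retinas, against 1.83, 0.979 and 1.18 CPM in non-diabetic retinas (log2 fold change 1.69 ± 0.26, edgeR adjusted p 0.00954). Hif3a, a member of the hypoxia-inducible factor family and also an induced target, was at 14.7, 9.63, 16.9 and 16.2 CPM in diabetic retinas, against 7.18, 5.87 and 6.49 CPM in non-diabetic retinas (1.14 ± 0.16, edgeR adjusted p 0.00853). Diabetic library R_WT_db_915 was the lowest of its group for both genes, and still above every non-diabetic library.

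Cdkn1a, the cell cycle inhibitor p21, was at 6.05, 3.90, 4.18 and 4.79 CPM in diabetic retinas, against 2.82, 2.64 and 2.60 CPM in non-diabetic retinas (log2 fold change 0.81 ± 0.19, edgeR adjusted p 0.0387). Klf9, a Krüppel-like factor, was at 189, 164, 174 and 194 CPM in diabetic retinas, against 151, 134 and 146 CPM in non-diabetic retinas (0.32 ± 0.08, edgeR adjusted p 0.039). Other known targets did not pass: Fkbp5, a chaperone of the receptor, was at 47.5, 24.2, 31.7 and 25.6 CPM in diabetic retinas, against 25.3, 21.4 and 21.3 CPM in non-diabetic retinas (edgeR adjusted p 0.147), and Tsc22d3, Per1, Sgk1 and the receptor gene Nr3c1 had edgeR adjusted p values of 0.342, 0.197, 0.811 and 0.794. Without non-diabetic library R_WT_ndb_819 none of the 15 passed, and without diabetic library R_WT_db_844 Zbtb16, Hif3a, Cdkn1a and Klf9 passed again, with medians of 0.19 in both fits. Blood corticosterone and glucose are not among the measurements used here.

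Among the markers of retinal neurons, some cone and bipolar cell genes and 1 rod gene fell. In bulk tissue, fewer cells of a type and less RNA per cell cannot be told apart. Of 11 cone genes, 2 fell and none rose, where 1.19% of all genes tested fell, and the median log2 fold change was -0.30, against 0 over all genes tested. Gngt2, the gamma subunit of the cone transducin, was at 39.7, 36.4, 40.3 and 40.3 CPM in diabetic retinas, against 52.1, 56.0 and 49.7 CPM in non-diabetic retinas (log2 fold change -0.43 ± 0.07, edgeR adjusted p 0.00954). Pde6h, the inhibitory subunit of the cone phosphodiesterase, was at 102, 89.7, 104 and 101 CPM in diabetic retinas, against 129, 165 and 129 CPM in non-diabetic retinas (-0.51 ± 0.09, edgeR adjusted p 0.0113). For both genes the groups did not overlap. Without non-diabetic library R_WT_ndb_819 the log2 fold change was -0.38 for each (edgeR adjusted p 0.0545 for both). The summed level of the cone list was 1695, 1316, 1484 and 1508 CPM in diabetic retinas, against 1744, 2091 and 1660 CPM in non-diabetic retinas, so that diabetic library R_WT_db_844 overlapped with non-diabetic library R_WT_ndb_852.

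Of 19 rod genes, 1 fell (1.19% of all genes tested did): Rcvrn, recoverin, the calcium sensor that inhibits rhodopsin kinase, was at 610, 681, 744 and 644 CPM in diabetic retinas, against 787, 855 and 804 CPM in non-diabetic retinas (log2 fold change -0.28 ± 0.07, edgeR adjusted p 0.0363). The median of the rod list was 0.03, and 6 of the 19 genes had a negative log2 fold change, so that most went the other way. All diabetic retinas lay above the non-diabetic ones for 2 rod genes and below them for 2. Of 14 bipolar cell genes, 2 fell, against the same 1.19% of all genes, and the median was -0.035. Without library R_WT_ndb_819 none of the rod and bipolar cell genes passed. Pcp2, a regulator of G protein signalling in ON bipolar cells, was at 114, 102, 169 and 129 CPM in diabetic retinas, against 193, 183 and 183 CPM in non-diabetic retinas (-0.54 ± 0.12, edgeR adjusted p 0.0357). Scgn, the calcium sensor secretagogin of cone bipolar cells, was at 59.1 to 67.2 CPM in diabetic retinas, against 70.3 to 82.8 CPM in non-diabetic retinas (-0.29 ± 0.07, edgeR adjusted p 0.0396). None of 14 amacrine and horizontal cell genes and none of 13 ganglion cell genes passed, with medians of 0.03 and 0.23. Of the 13 ganglion cell genes, 2 had a negative log2 fold change. The ganglion cell list summed to 1006 to 1109 CPM in diabetic retinas, against 1144, 576 and 1149 CPM in non-diabetic retinas, so that library R_WT_ndb_819 had the lowest value. Syt1, the calcium sensor of synaptic vesicle release, was the only one of 25 synapse genes to pass, at 1250, 1243, 1306 and 1302 CPM in diabetic retinas, against 1154, 1013 and 1090 CPM in non-diabetic retinas (0.23 ± 0.05, edgeR adjusted p 0.036).

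Some glial, vascular and myeloid markers fell. Mueller glia are the supporting glia of the retina. Of their 11 markers 1 fell, where 1.19% of all genes tested fell, and the median log2 fold change was -0.095. The summed level of the list overlapped between the groups, at 4673 to 5446 CPM in diabetic and 4973 to 5405 CPM in non-diabetic retinas. Rlbp1, the retinaldehyde-binding protein of the visual cycle, fell to 397, 428, 444 and 406 CPM in diabetic retinas, against 557, 511 and 501 CPM in non-diabetic retinas (log2 fold change -0.32 ± 0.08, edgeR adjusted p 0.0405). Of 17 genes of gliosis and glial stress, none passed the test with edgeR. Vim, the intermediate filament vimentin, was at 131, 102, 112 and 113 CPM in diabetic retinas, against 136, 139 and 122 CPM in non-diabetic retinas (edgeR adjusted p 0.222).

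Of 13 endothelial genes, 2 fell, where 1.19% of all genes tested fell. The summed level of the list overlapped between the groups, at 338.5, 435.3, 356.8 and 372.1 CPM in diabetic retinas, against 353.7, 362.9 and 360.6 CPM in non-diabetic retinas. Cldn5, the tight junction protein claudin 5 of the blood-retina barrier, was at 6.20, 8.10, 7.82 and 6.50 CPM in diabetic retinas, against 12.6, 12.3 and 10.03 CPM in non-diabetic retinas (log2 fold change -0.70 ± 0.14, edgeR adjusted p 0.0191). Emcn, the endothelial surface protein endomucin, was at 1.64, 1.53, 1.44 and 1.32 CPM in diabetic retinas, against 2.97, 3.04 and 2.36 CPM in non-diabetic retinas (-0.91 ± 0.19, edgeR adjusted p 0.026). In 6 of the 13 genes all diabetic retinas lay below the non-diabetic ones, against 6.97% of all genes tested. None of 10 mural cell genes passed, and all 10 had a negative log2 fold change, with a median of -0.17. Rgs5, a pericyte marker, was at 66.9, 63.4, 65.4 and 79.5 CPM in diabetic retinas, against 81.6, 82.1 and 75.8 CPM in non-diabetic retinas (edgeR adjusted p 0.122). None of 15 genes of VEGF and angiopoietin signalling passed, with a median of -0.05. All diabetic retinas lay above the non-diabetic ones for 2 of the 15 and below them for 2. The VEGF receptor gene Flt1 was at 122, 104, 104 and 102 CPM in diabetic retinas, against 96.1, 88.5 and 94.8 CPM in non-diabetic retinas (log2 fold change 0.21 ± 0.07, edgeR adjusted p 0.0944). The endothelial receptor gene Tek was at 4.71, 5.19, 5.08 and 5.42 CPM in diabetic retinas, against 7.33, 6.36 and 6.49 CPM in non-diabetic retinas (log2 fold change -0.40 ± 0.12, edgeR adjusted p 0.0772).

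All 15 microglia and macrophage genes had a negative log2 fold change, with a median of -0.39, and in 9 of them all diabetic retinas lay below the non-diabetic ones, against 6.97% of all genes tested. The list summed to 81.2, 66.7, 83.5 and 75.8 CPM in diabetic retinas, against 94.3, 98.6 and 95.4 CPM in non-diabetic retinas, without overlap. Of the 15, 2 passed the test, where 1.19% of all genes tested fell. Cd68, a lysosomal membrane protein of macrophages, was at 1.89, 1.24, 1.54 and 2.35 CPM in diabetic retinas, against 2.92, 3.72 and 4.03 CPM in non-diabetic retinas (log2 fold change -1.02 ± 0.25, edgeR adjusted p 0.0479). Itgam, the integrin chain CD11b, was at 2.43, 1.73, 2.09 and 1.91 CPM in diabetic retinas, against 2.97, 3.62 and 3.19 CPM in non-diabetic retinas (-0.68 ± 0.17, edgeR adjusted p 0.0462). Neither call held without diabetic library R_WT_db_915 or R_WT_db_942 or without non-diabetic library R_WT_ndb_812, R_WT_ndb_819 or R_WT_ndb_852, while the median stayed between -0.46 and -0.36 in the 7 fits that left out 1 library. The complement genes C1qa and C1qc, made by microglia, had edgeR adjusted p values of 0.0719 and 0.0887. Lyz2, lysozyme of myeloid cells, fell to 0.942, 2.02, 2.34 and 1.12 CPM in diabetic retinas, against 2.67, 5.78 and 3.83 CPM in non-diabetic retinas (-1.35 ± 0.33, edgeR adjusted p 0.0453). Of 21 interferon response genes, none passed with edgeR. Their median was -0.43. Irf1, an interferon-induced transcription factor, was at 4.76, 5.24, 4.43 and 5.03 CPM in diabetic retinas, against 6.29, 8.47 and 6.04 CPM in non-diabetic retinas (edgeR adjusted p 0.0882). Of the 12 lymphocyte markers 5 were tested, 3 of which had a negative log2 fold change, with a median of -0.20 over the 5. Of all genes tested 1.29% rose. Ms4a1, the B cell protein CD20, was the 1 lymphocyte marker that rose, to 0.298, 0.790, 1.15 and 0.733 CPM in diabetic retinas, against 0.198, 0.196 and 0.197 CPM in non-diabetic retinas (1.88 ± 0.44, edgeR adjusted p 0.0387).

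Some genes of the respiratory chain fell. Photoreceptors are among the cells with the highest oxygen use, and the chain in their inner segments is built from nuclear and mitochondrial genes. Of 80 nuclear genes of the chain and ATP synthase, 12 fell and none rose, where 1.19% of all genes tested fell. Of the 80, 75 had a negative log2 fold change, and the median was -0.18, against -0.13 for the diabetes effect in knockout retina. In 30 of the 80 all diabetic retinas lay below the non-diabetic ones, against 6.97% of all genes tested. Ndufa13, a subunit of complex I, was at 48.7, 50.1, 49.6 and 49.3 CPM in diabetic retinas, against 63.5, 63.3 and 59.1 CPM in non-diabetic retinas (log2 fold change -0.33 ± 0.05, edgeR adjusted p 0.00853). Cox4i2, a subunit of complex IV, was at 13.0, 12.5, 13.8 and 10.4 CPM in diabetic retinas, against 17.1, 19.6 and 18.9 CPM in non-diabetic retinas (-0.57 ± 0.09, edgeR adjusted p 0.0107). Atp5e, a subunit of ATP synthase, was at 30.2 to 32.8 CPM in diabetic retinas, against 36.7 to 40.7 CPM in non-diabetic retinas (edgeR adjusted p 0.0187). The number of falls was 13, 3, 25 and 4 without diabetic library R_WT_db_844, R_WT_db_915, R_WT_db_942 or R_WT_db_954, and 2, 0 and 4 without non-diabetic library R_WT_ndb_812, R_WT_ndb_819 or R_WT_ndb_852, while the median lay between -0.20 and -0.15 in the 7 fits that left out 1 library. Cytosolic ribosomal protein genes had a median of -0.15 (-0.10 in knockout retina), with a negative log2 fold change in 71 of 78. Of the 78, 5 fell and 2 rose, where 1.19% of all genes tested fell and 1.29% rose. All diabetic retinas lay below the non-diabetic ones in 22 of the 78, against 6.97% of all genes tested.

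Of 13 genes encoded in the mitochondrial genome, 3 fell, where 1.19% of all genes tested fell, and without non-diabetic library R_WT_ndb_819 none did. mt-Cytb, cytochrome b of complex III, was at 9171, 8437, 9553 and 8764 CPM in diabetic retinas, against 11670, 10540 and 11340 CPM in non-diabetic retinas (log2 fold change -0.32 ± 0.06, edgeR adjusted p 0.0191). mt-Nd2 and mt-Nd6, subunits of complex I, fell with log2 fold changes of -0.33 ± 0.07 and -0.39 ± 0.08 (edgeR adjusted p 0.027 for each). The sum of the mitochondrial list overlapped between the groups, at 59700 to 72780 CPM in diabetic retinas and 65220 to 75380 CPM in non-diabetic retinas. Its median log2 fold change was -0.156 in wild-type and -0.275 in knockout retina. Among other metabolic lists, none of 16 genes of fatty acid oxidation and none of 25 genes of sterol and fatty acid synthesis passed. Cpt1a, the carnitine transferase that admits fatty acids to mitochondria, was at 201, 230, 231 and 238 CPM in diabetic retinas, against 182, 204 and 168 CPM in non-diabetic retinas (edgeR adjusted p 0.0553). Akr1b3, aldose reductase, the first enzyme of the polyol route of glucose, was at 29.4, 26.6, 29.3 and 28.5 CPM in diabetic retinas, against 32.6, 33.7 and 32.4 CPM in non-diabetic retinas (edgeR adjusted p 0.0649). Of 17 genes of the unfolded protein response and of 20 clock genes none passed, and Dbp, a clock output gene, was at 138, 166, 177 and 168 CPM in diabetic retinas, against 194, 194 and 188 CPM in non-diabetic retinas (edgeR adjusted p 0.0763).

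**Figure D3:**
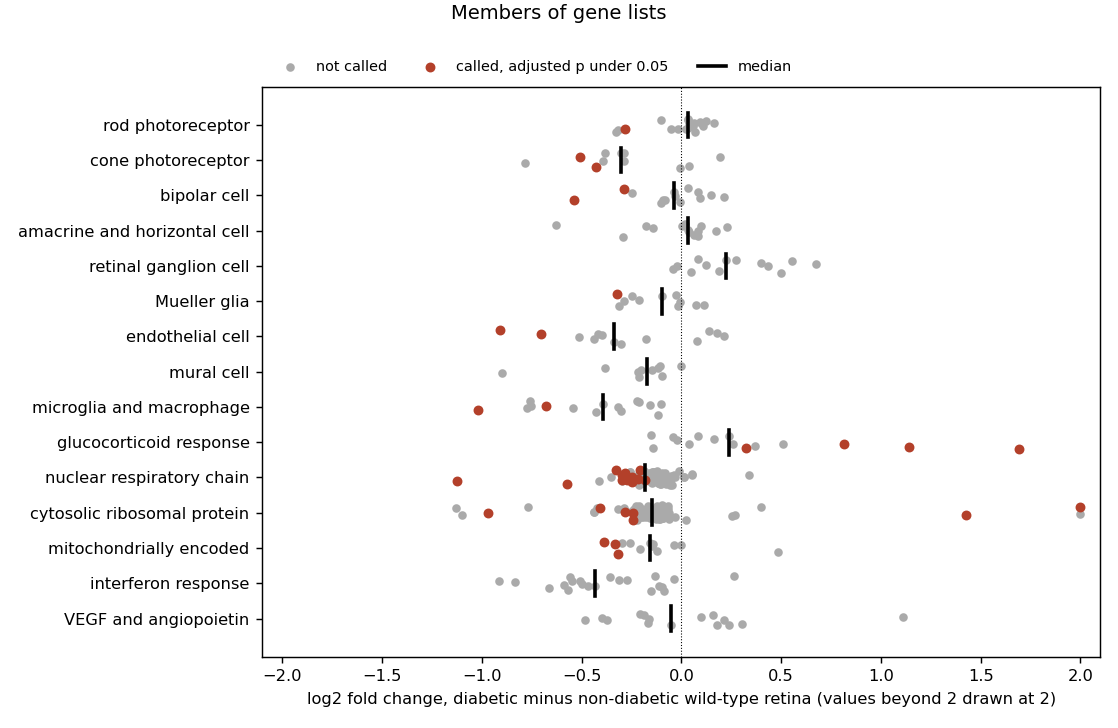
Log2 fold change of each member of 15 gene lists, diabetic minus non-diabetic wild-type retina (horizontal axis, values beyond 2 drawn at 2), with called genes in red, other genes in grey and a black bar at the median of the list. The glucocorticoid list has a median of 0.24 with 4 called rises, and the nuclear respiratory chain list has a median of -0.18 with 12 called falls.

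Of the 13 genes of the calmodulin-dependent kinase list, 2 rose, where 1.29% of all genes tested rose, and the median was 0.03. No gene of the list passed when any 1 wild-type library other than R_WT_db_844 was left out, and without R_WT_db_844 there were 4 rises and 1 fall. Camk2d itself, the gene removed in the knockout groups, was at 343, 320, 322 and 316 CPM in diabetic retinas, against 331, 306 and 285 CPM in non-diabetic retinas, so that the groups overlapped (log2 fold change 0.08 ± 0.07, edgeR adjusted p 0.539). Camk2g was at 109, 179, 199 and 154 CPM in diabetic retinas, against 108, 97 and 109 CPM in non-diabetic retinas (0.61 ± 0.14, edgeR adjusted p 0.0324). Diabetic library R_WT_db_844 lay at the level of the non-diabetic retinas for Camk2g, and the other 3 lay above them. Camk2a, the isoform of forebrain neurons, was at 52.5, 59.0, 75.3 and 57.5 CPM in diabetic retinas, against 50.3, 42.0 and 49.3 CPM in non-diabetic retinas, and did not pass (0.37 ± 0.10, edgeR adjusted p 0.0695; 0.0141 without library R_WT_db_844). Camk2b was at 159 to 189 CPM in diabetic retinas, against 147 to 170 CPM in non-diabetic retinas (edgeR adjusted p 0.499). Camk1d rose to 251, 195, 220 and 198 CPM in diabetic retinas, against 172, 161 and 172 CPM in non-diabetic retinas (0.36 ± 0.09, edgeR adjusted p 0.0477). Lepr was near the detection limit in all of these libraries, at 0.546, 0.247, 0.199 and 0.489 CPM in diabetic retinas, against 0.544, 0.294 and 0.737 CPM in non-diabetic retinas (edgeR adjusted p 0.568). A count of Lepr reads sums all of its forms and does not check the db allele.

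A second set of genes separated diabetic libraries R_WT_db_915, R_WT_db_942 and R_WT_db_954 from library R_WT_db_844, which resembled the non-diabetic retinas for them. In 37 of the 520 calls library R_WT_db_844 was the outlying member of its group by Dixon's criterion, against 7, 6 and 2 for libraries R_WT_db_915, R_WT_db_942 and R_WT_db_954. Over all genes tested library R_WT_db_844 was outlying in 478 (2.28%), against 257 (1.23%), 437 (2.08%) and 222 (1.06%) for the same libraries, so that R_WT_db_942 was close to it. Eno1b, an intronless copy of the glycolytic enzyme gene Eno1, was at 4.32, 952, 1033 and 899 CPM in diabetic retinas, against 1.53, 1.18 and 1.08 CPM in non-diabetic retinas. Eno1 itself was at 1981, 922, 1219 and 929 CPM in diabetic retinas, against 2350, 2530 and 2266 CPM in non-diabetic retinas. Their sum was 1985, 1874, 2252 and 1828 CPM in diabetic retinas, against 2352, 2531 and 2267 CPM in non-diabetic retinas. The sum differed far less between libraries than Eno1b did, and 10.8% of the 31-base stretches of Eno1b occur in no other gene. In knockout retinas Eno1b was at 0.488 to 2.40 CPM.

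Rps18, a protein of the small ribosomal subunit, was at 7.54, 85.6, 97.4 and 101 CPM in diabetic retinas, against 6.68, 6.51 and 6.88 CPM in non-diabetic retinas. All 7 knockout retinas, diabetic or not, were at 86.5 to 99.7 CPM. Rpl30 and Ndufs5 ran the other way. Rpl30, of the large subunit, was at 103, 42.7, 50.1 and 44.7 CPM in diabetic retinas, against 118, 113 and 122 CPM in non-diabetic retinas. Ndufs5, of complex I, was at 36.6, 16.5, 17.0 and 17.7 CPM in diabetic retinas, against 47.5, 45.9 and 50.5 CPM in non-diabetic retinas. The 3 diabetic libraries other than R_WT_db_844 were close to each other for each of these genes, with a gap to all other wild-type retinas. Glo1, glyoxalase 1, which removes the glucose by-product methylglyoxal, was at 480, 136, 136 and 135 CPM in diabetic retinas, against 511, 483 and 481 CPM in non-diabetic retinas, and did not pass with all libraries (log2 fold change -1.15 ± 0.34, edgeR adjusted p 0.0823). Library R_WT_db_844 was at the non-diabetic level of Glo1, and without it the log2 fold change was -1.85 and the gene passed (edgeR adjusted p 3.76e-11). Knockout retinas, diabetic or not, were also below the non-diabetic wild-type level of Glo1. They were at 174 to 194 CPM in the diabetic group and 181 to 206 CPM in the non-diabetic group. Without R_WT_db_844 the log2 fold change was 9.57 for Eno1b, against 9.15 with all libraries, and 3.82 for Rps18, against 3.44. For Rpl30 it was -1.36 without that library, against -0.97, and for Ndufs5 it was -1.49, against -1.13.

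Slc7a11, the cystine and glutamate exchanger of the antioxidant response, showed the same split, at 6.50, 13.4, 13.5 and 14 CPM in diabetic retinas, against 5.39, 6.31 and 5.16 CPM in non-diabetic retinas. Gbp2b, an interferon-induced GTPase, was at 0.0496, 1.73, 1.64 and 1.66 CPM in diabetic retinas and had no count in any non-diabetic retina, so that its mean was at least 8.61-fold higher in diabetic retinas over a floor of 3 counts per library. Tap1, a peptide transporter of antigen presentation, was at 6.65, 2.96, 2.49 and 2.64 CPM in diabetic retinas, against 6.19, 7 and 7.67 CPM in non-diabetic retinas (log2 fold change -0.92 ± 0.26, edgeR adjusted p 0.0761), and without library R_WT_db_844 it passed, at -1.36 (edgeR adjusted p 3.73e-05). Cthrc1, a secreted collagen triple helix protein, was at 3.12, 0.691, 0.597 and 0.342 CPM in diabetic retinas, against 4.11, 5.33 and 3.93 CPM in non-diabetic retinas. Cldn23, a claudin, was at 6.94, 2.02, 1.94 and 1.56 CPM in diabetic retinas, against 9.50, 10.9 and 8.11 CPM in non-diabetic retinas. The log2 fold change was -3.02 without library R_WT_db_844 and -1.90 with all libraries for Cthrc1, and -2.36 without it and -1.61 with all libraries for Cldn23. Among the 12 largest rises, Efcab8, Tmem233, Myom2, Masp2, Cdc34b, Rgs22 and Slc25a41 were also lowest in library R_WT_db_844 among the diabetic retinas. Whether these values follow diabetes or another difference between animal R_WT_db_844 and animals R_WT_db_915, R_WT_db_942 and R_WT_db_954 cannot be told apart with these libraries.

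**Figure D4:**
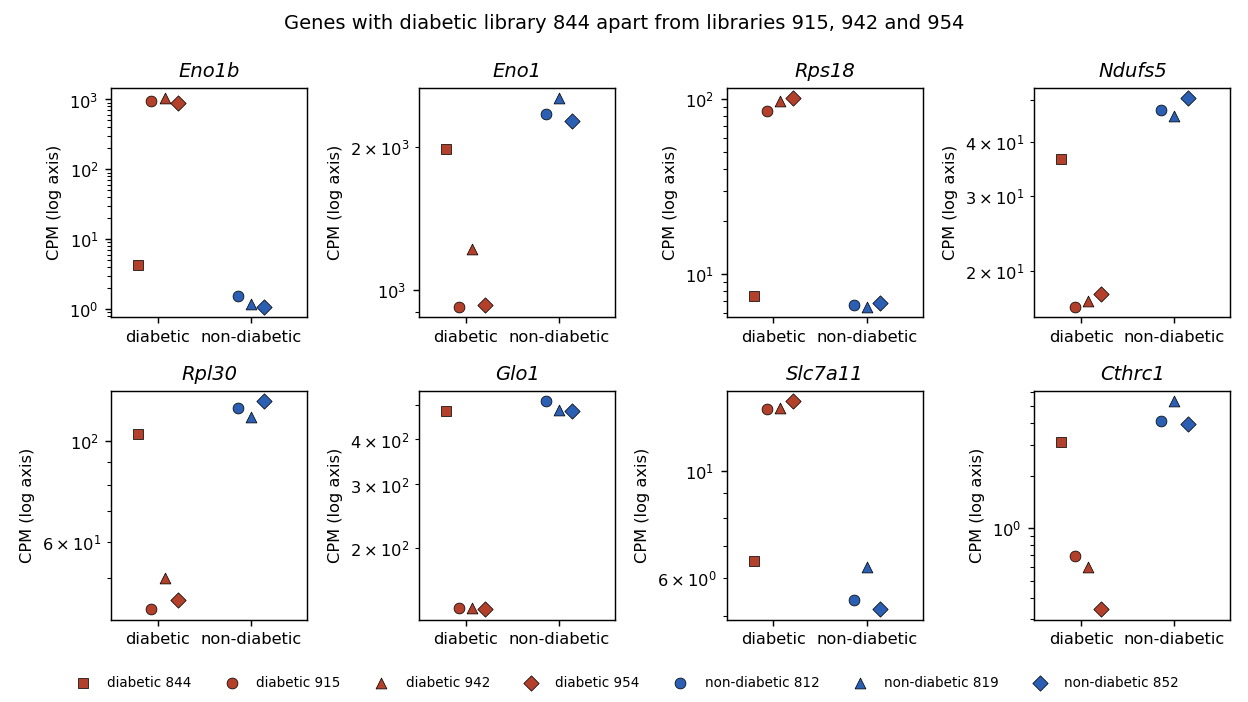
CPM on log axes of 8 genes in each diabetic (left) and non-diabetic (right) wild-type retina, with symbols for the animals. Diabetic library R_WT_db_844 lies near the non-diabetic retinas and away from libraries R_WT_db_915, R_WT_db_942 and R_WT_db_954, for example at 4.32 CPM of Eno1b against 952, 1033 and 899 CPM.

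The largest falls were of lens genes. The crystallins fill the fibre cells of the lens, and some of them are also made at low level in retina. Of 20 lens genes tested, 15 fell and none rose, with a median log2 fold change of -3.16. The list summed to 107.6, 114, 205.3 and 99.15 CPM in diabetic retinas, against 1838, 1203 and 155.5 CPM in non-diabetic retinas. Non-diabetic retina R_WT_ndb_852 thus lay within the diabetic range, and retinas R_WT_ndb_812 and R_WT_ndb_819 lay far above it. Crygs, gamma-S crystallin, was at 3.62, 3.26, 6.97 and 3.81 CPM in diabetic retinas, against 92.3, 73.9 and 6.88 CPM in non-diabetic retinas (log2 fold change -3.71 ± 0.63, edgeR adjusted p 0.0118). Cryba2, a beta crystallin, was at 2.83, 3.11, 6.12 and 2.54 CPM in diabetic retinas, against 80.0, 53.0 and 5.46 CPM in non-diabetic retinas (-3.66 ± 0.63, edgeR adjusted p 0.0118). Cryba1 was at 7.64, 6.22, 14.3 and 5.18 CPM in diabetic retinas, against 159, 113 and 11.8 CPM in non-diabetic retinas (-3.50 ± 0.62, edgeR adjusted p 0.0129). Groups overlapped for all 3 genes.

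Against retina R_WT_ndb_852 alone, with libraries R_WT_ndb_812 and R_WT_ndb_819 left out, the median of the lens list was -0.21. Without R_WT_ndb_812 alone or R_WT_ndb_819 alone it was -2.72 and -2.89, with 0 lens genes called in each fit. With both left out the non-diabetic group held 1 library, which is assumed to vary like the other groups, and that fit called no gene at all with edgeR (2001 genes at an unadjusted p under 0.05), so that the lack of calls says nothing of the list. With the summed lens level as a covariate, 1 gene passed over all genes, Glt28d2, a glycosyltransferase gene, at an edgeR adjusted p of 0.0459. Glt28d2 was not among the 520 genes (edgeR adjusted p 0.287 without the covariate). None of the 520 passed with the covariate, and 512 of them kept their direction. Cornea genes, 5 of which were tested, summed to 5.21, 22.8, 11.3 and 4.15 CPM in diabetic retinas, against 5.25, 33.3 and 11.2 CPM in non-diabetic retinas, and none passed. Pigment epithelium genes summed to 259 to 727 CPM in diabetic retinas, against 506 to 655 CPM in non-diabetic retinas. The part of lens RNA in these results was not tested.

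The RefSeq promoter windows of these 3 crystallin genes are shown because the genes moved together over the libraries. They lie at chr16:22811361-22811660, minus strand, at chr11:77725244-77725543, minus strand, and at chr1:74893094-74893393, minus strand, in the same build and with the same marks as above.
Crygs: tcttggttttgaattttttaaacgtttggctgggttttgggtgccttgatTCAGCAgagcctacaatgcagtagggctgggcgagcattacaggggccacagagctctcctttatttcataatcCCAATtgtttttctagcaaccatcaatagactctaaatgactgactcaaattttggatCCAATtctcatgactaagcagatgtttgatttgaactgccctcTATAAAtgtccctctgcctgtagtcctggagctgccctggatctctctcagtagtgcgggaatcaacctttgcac
Cryba1: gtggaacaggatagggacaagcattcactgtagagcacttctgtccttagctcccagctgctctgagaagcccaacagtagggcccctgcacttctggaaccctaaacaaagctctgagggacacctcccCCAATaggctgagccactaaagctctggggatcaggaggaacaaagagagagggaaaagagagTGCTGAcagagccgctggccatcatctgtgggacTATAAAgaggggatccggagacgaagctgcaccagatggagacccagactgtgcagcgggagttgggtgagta
Cryba2: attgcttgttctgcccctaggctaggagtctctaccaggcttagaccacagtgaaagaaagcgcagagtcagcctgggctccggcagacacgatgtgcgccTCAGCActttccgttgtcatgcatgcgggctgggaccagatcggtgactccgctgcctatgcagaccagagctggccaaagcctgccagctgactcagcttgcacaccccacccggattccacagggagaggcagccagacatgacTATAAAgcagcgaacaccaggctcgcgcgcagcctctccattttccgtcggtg
Each held 1 TATA box match on the coding strand, at -25, -23 and -3 bases from the start, and 1 Maf match on either strand. Of the 15 lens genes that fell, 13 had a window in the table, 1 of them with 2, which made 14 windows. Of these, 50% held the TATA box, 71.4% the Maf sequence, 42.9% the CCAAT box and 28.6% the glucocorticoid receptor core, against 13.6%, 19.5%, 37.4% and 19% of all windows.

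**Figure D5:**
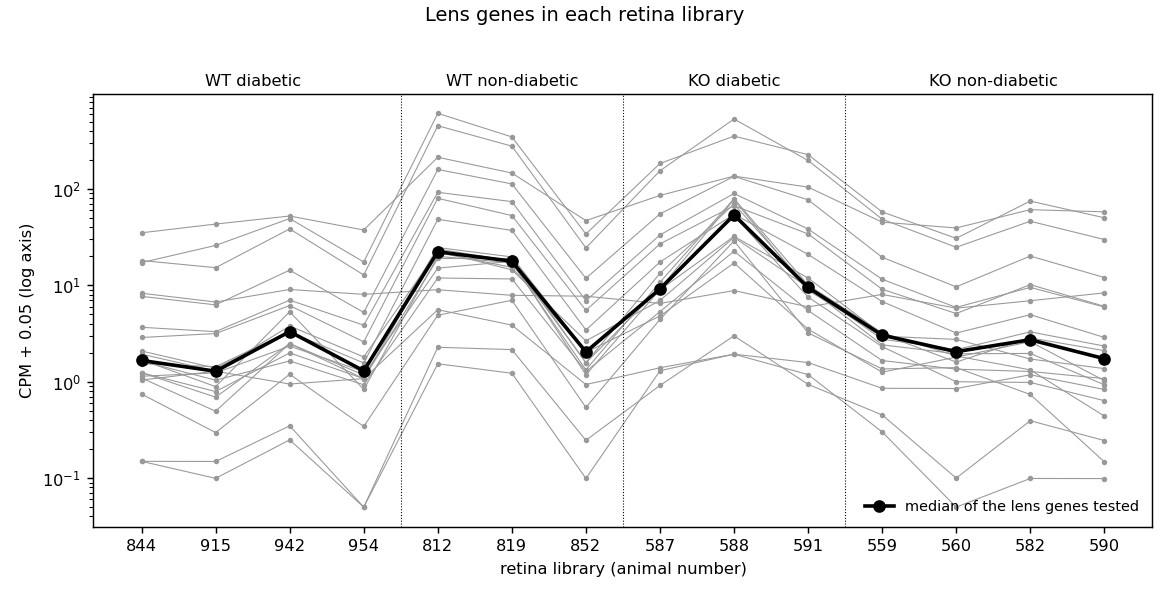
CPM + 0.05 (log axis) of each tested lens gene (grey lines) and their median (black) in the 14 retina libraries, ordered by group and animal. The lens genes are high in non-diabetic wild-type libraries R_WT_ndb_812 and R_WT_ndb_819 and in the diabetic knockout libraries, where the list summed to 639.1, 1796 and 778.2 CPM.

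The knockout retinas gave a second view of the diabetes effect. In them no gene passed with edgeR (0% of those tested, with 1855 at an unadjusted p under 0.05, and 91 by DESeq2). Of the 520 genes called in wild-type retina, 347 (66.7%) had the same direction in knockout retina, as had 57.6% of all genes tested. The difference between the 2 diabetes effects was tested directly. It passed for 26 genes (0.124%), 16 of them in the lens list and 10 outside it. For the lens list, the knockout effect ran the other way, with a median of 2.77, and sums of 639.1, 1796 and 778.2 CPM in diabetic knockout retinas against 140.5 to 251.3 CPM in non-diabetic knockout retinas. Cryba4, a beta crystallin, had log2 fold changes of -3.87 in wild-type and 2.81 in knockout retina (edgeR adjusted p of the difference 0.0196).

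Among the genes outside the lens list, Fabp5, a fatty acid-binding protein, was at 13.4, 7.26, 6.62 and 10.4 CPM in diabetic wild-type retinas, against 23.9, 22.7 and 16.7 CPM in non-diabetic wild-type retinas, with a log2 fold change of -1.16 ± 0.25 in wild-type and 0.79 in knockout retina (edgeR adjusted p of the difference 0.0436). Fabp5 was at 16.0, 31.1 and 16.0 CPM in diabetic knockout retinas, against 11.5 to 12.8 CPM in non-diabetic knockout retinas, and its highest values over the 14 retinas (31.1, 23.9 and 22.7 CPM) were in the libraries with the highest lens sums (1796, 1838 and 1203 CPM). With the lens covariate its wild-type log2 fold change was -0.72 (edgeR adjusted p 0.45). Rsbn1 and Rpl10-ps3, described above, also differed, with knockout log2 fold changes of 0.00 and 0.04 (edgeR adjusted p of the difference 0.0488 and 0.0312). Rsbn1 was at 102 to 108 CPM in diabetic knockout retinas, against 96.5 to 112 CPM in non-diabetic knockout retinas. Rpl10-ps3 was at 88.2 to 94.7 CPM against 85.8 to 92.4 CPM. For both genes all knockout retinas, diabetic or not, were nearer to the diabetic than to the non-diabetic wild-type retinas. Other called genes also lay outside the non-diabetic wild-type range, on the diabetic side, in all knockout retinas. Taf4b was at 37.5 to 49.2 CPM in them, Ring1 at 38.5 to 43.1 CPM and Pcp2 at 121 to 156 CPM. This was not so for Selenbp1 and Hif3a, at 6.04 to 8.05 CPM and 6.84 to 7.95 CPM in non-diabetic knockout retinas. The cause was not tested. Selenbp1 had a log2 fold change of 0.74 in knockout retina, and the difference did not pass (edgeR adjusted p 0.136). The same held for Zbtb16 at 0.15 (0.155) and for Hif3a at 0.48 (0.335). Cdkn1a had 0.81 in wild-type and 0.74 in knockout retina, and Rcvrn -0.28 in both. The count of differing genes was 0 without diabetic library R_WT_db_915, without non-diabetic library R_WT_ndb_812 and without non-diabetic library R_WT_ndb_819, and 541 without diabetic library R_WT_db_844.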

How the data were processed

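RNA of flash-frozen organs was isolated with Trizol and sequenced on a BGISEQ-500, per the labels. The submitters' processing notes name Trim Galore 0.6.4 for trimming, kallisto 0.4.6 for quantification and the build GRCm38.p6. The authors deposited expected counts (estimated counts) and TPM per gene and library. Between 36.8% and 38.6% of the expected counts were not whole, and they were rounded before testing.

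The 14 retina libraries (19979385 to 20819158 expected counts each) were fitted together in 4 groups with edgeR 4.0.16 in R 4.3.3 (TMM, filterByExpr, quasi-likelihood F test, Benjamini-Hochberg over all 20979 genes, called at an adjusted p under 0.05). CPM use TMM-scaled library sizes, and SE is the log2 fold change divided by the root of F. Alternatives used DESeq2 1.42.0, limma 3.58.1 on the authors' TPM (TPM of at least 1 in 3 libraries), other scaling, filters, covariates and left-out libraries. The model was tested on simulated counts drawn gene by gene, with no outlying library and no added lens RNA. That test therefore says nothing of how the calls depend on single libraries or on lens RNA. Unique sequence is the share of 31-base stretches found in no other gene of GENCODE M21. It was also low for some genes named without this limit: 52.8% for Pcp2, 66.8% for Ndufa13, 67.2% for Lyz2 and 70.1% for Rsbn1.

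Named genes were the largest rises and falls and the smallest p among called protein-coding genes whose groups did not overlap, with a mean of at least 1 CPM, plus the leading genes of each list, of the difference between genotypes, the CaMKII genes and Lepr. Fkbp5, Tsc22d3, Per1, Sgk1, Nr3c1, C1qa, C1qc, Gm20075 and Glt28d2 were named after their values were seen. The groups, gene lists and rules were chosen with earlier results of these data known. Each retina is a separate animal by its number, and no other replicate structure is given.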

Additional observations from a re-analysis of the deposited data

Results flagged for a closer look

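In the diabetic wild-type group, 1 library lay apart from the other 3 by Dixon's criterion for 20 named genes. Chance flags about 1 in 20 groups of 4. Over all genes tested library R_WT_db_844 was flagged in 2.28%, and libraries R_WT_db_915, R_WT_db_942 and R_WT_db_954 in 1.23%, 2.08% and 1.06%.

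Library R_WT_db_844 lay apart for 16 of these genes. It was at 4.32 CPM of Eno1b, 0.0496 CPM of Gbp2b, 7.54 CPM of Rps18, 0.347 CPM of Efcab8, 6.5 CPM of Slc7a11 and 39.7 CPM of Col4a2, below the other diabetic libraries. It was at 3.12 CPM of Cthrc1, 6.94 CPM of Cldn23, 2.43 CPM of Mlana, 6.94 CPM of C4b, 122 CPM of Flt1, 480 CPM of Glo1, 6.65 CPM of Tap1, 4.66 CPM of Socs3, 36.6 CPM of Ndufs5 and 103 CPM of Rpl30, above the other diabetic libraries. Library R_WT_db_915 was lowest for the cone gene Gngt2, at 36.4 CPM. Library R_WT_db_942 was highest for the lens genes Crygs (6.97 CPM), Cryba2 (6.12 CPM) and Crybb1 (3.29 CPM).

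The diabetes effect differed between wild-type and knockout retina, by the edgeR test of the difference itself, for 11 named genes. The adjusted p was 0.0196 for Cryba4, Crygs, Cryba2 and Cryba1, 0.024 for Crybb2, Crybb1, Lgsn and Cryaa, 0.0436 for Fabp5, 0.0312 for Rpl10-ps3 and 0.0488 for Rsbn1. The first 8 are lens genes, which were high in non-diabetic wild-type libraries R_WT_ndb_812 and R_WT_ndb_819 and in diabetic knockout libraries. Rsbn1 and Rpl10-ps3 were nearer to the diabetic than to the non-diabetic wild-type level in all knockout retinas, diabetic or not.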

How the results depend on the processing

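Relative log expression scaling and a sex covariate kept the counts of calls within 1.5 times (508 and 581 calls). The other settings gave, as calls, then the percent of genes tested that were higher and lower, then genes differing between genotypes: 796 (1.03% and 0.954%; 105) without the filter, 1073 (2.82% and 2.39%; 165) with DESeq2, 154 (0.606% and 0.129%; 1) with limma on log2(TPM + 1), 168 (0.654% and 0.148%; 1) on log2(TPM + 0.1), 1 (0.00499% and 0%) in wild-type libraries only, 1 (0.00477% and 0%; 1) with the lens covariate and 21 (0.0586% and 0.0361%; 1) without diabetic libraries R_WT_db_915, R_WT_db_942 and R_WT_db_954. These 2 settings were chosen after seeing the data: restricting the test to protein-coding genes with 90% or more of their 31-base stretches unique gave 357 (1.36% and 1.57%; 15), and leaving out non-diabetic libraries R_WT_ndb_812 and R_WT_ndb_819 gave 0 (0% and 0%; 0). Leaving out each wild-type library in turn gave 4 to 1501 calls, 0.014% to 3.29% higher, 0.00466% to 3.88% lower and 0 to 541 differing between genotypes. The cause of these shifts was not tested. Of 74 named genes that were called, 70 lost the call without at least 1 library, all 70 of them without non-diabetic library R_WT_ndb_819, and none without diabetic library R_WT_db_844. With the lens covariate Crybb2, Crybb1 and Lgsn changed sign, at log2 fold changes of 0.08, 0.21 and 0.38. No paired analysis was possible because the groups compared share no replicate numbers. With 4 and 3 libraries of the totals given above, genes under about 1 CPM have few counts per library.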

Other observations

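Chromosome 3, which carries Selenbp1 and Camk2d, held 45 calls among 1099 genes tested (4.09%), against 2.48% over all genes. Chromosome 18, which carries Eno1b, Taf4b and Dpysl3, held 15 calls among 564 genes tested (2.66%), near the 2.48% over all genes. Of these calls, 15 were higher in diabetic retina and 0 were lower. Neither pattern was tested.

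Of 20 tested genes of basement membrane and matrix, 2 rose and 1, Nid1, fell, where 1.29% of all genes tested rose and 1.19% fell, and 12 had a negative log2 fold change, with a median of -0.03. Col4a2, a collagen IV chain, was at 39.7, 48.9, 48.7 and 50.4 CPM in diabetic retinas, against 36.4, 41.5 and 35.5 CPM in non-diabetic retinas (log2 fold change 0.31 ± 0.08, edgeR adjusted p 0.0486). Fn1, fibronectin, was at 48.9, 65.6, 63.1 and 62.2 CPM in diabetic retinas, against 42.5, 49.3 and 42.4 CPM in non-diabetic retinas (0.42 ± 0.09, edgeR adjusted p 0.027). Both groups overlapped for each gene through diabetic library R_WT_db_844. Crabp1, a retinoic acid-binding protein, fell to 8.28, 5.88, 8.26 and 5.57 CPM in diabetic retinas, against 10.2, 12.4 and 9.58 CPM in non-diabetic retinas (-0.62 ± 0.15, edgeR adjusted p 0.0495). Cd59a, which blocks the complement membrane attack complex, fell to 81.8, 45.6, 58.5 and 73.9 CPM in diabetic retinas, against 89.7, 106 and 92.3 CPM in non-diabetic retinas (-0.56 ± 0.14, edgeR adjusted p 0.0495).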
